A study of Mus musculus with 19 samples.

Results

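The collagen genes were taken as all genes whose symbol is "Col", a number, "a" and a number, the form used for the chains of the mouse collagens. Of the genes in the tables, 44 of 55573 in the table of 7 tissues, 44 of 55487 in the table of brown adipose tissue (BAT) and 34 of 13756 in the table of inguinal white adipose tissue (iWAT) met this rule. They were read in 3 classes: 11 chains of fibrillar collagens, 6 chains of basement membrane collagen IV and 27 chains of other collagens. The iWAT table, which lists fewer genes, held 9, 6 and 19 of them. It did not list *Col2a1*, *Col24a1*, *Col8a2*, *Col9a1*, *Col9a2*, *Col10a1*, *Col19a1*, *Col22a1*, *Col25a1* and *Col26a1*.

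The 7 tissues were brain, heart, small intestine, brown adipose, white adipose, tibialis anterior and liver of wild-type C57BL/6J mice, with 1 library each and no age or diet given in the sources used here. The fat of the genotype comparison came from wild-type (WT) controls and MCK-Musclin mice kept at 8 °C for 1 week, with 3 libraries for each genotype and depot. These mice were male, chow-fed and 5 months old. MCK-Musclin mice carry the coding sequence of Musclin (*Ostn*), a peptide secreted by muscle, behind the promoter of muscle creatine kinase, which is active in skeletal muscle. Several founder lines backcrossed to C57BL/6J were made, and the line used for these libraries is not given. All values are FPKM, fragment counts scaled to gene length and library size, so that levels of different genes can be compared. Counts were not given, so the depth behind a value is unknown. *Ostn* was at 30.3 to 37.9 FPKM in the 3 MCK-Musclin libraries of BAT and at 0 in the 3 WT libraries. In iWAT it was at 0, 5.17 and 4.21 FPKM in the libraries labelled MCK-Musclin replicates 1, 2 and 3, and at 0, 0 and 0.225 in WT. The summed level of 13 skeletal muscle markers, of which 12 were listed, was 13.8, 115.7 and 129.0 FPKM in these 3 libraries and 12.2, 544.5 and 2856 in WT replicates 1, 2 and 3. Since the transgene is driven in muscle, the absence of *Ostn* from the library labelled MCK-Musclin replicate 1 does not settle whether its label is right, and the iWAT counts at the cutoff and the median are also given without it. The defining markers went with the tissue labels: *Myh6* was highest in heart, *Snap25* in brain, *Alb* in liver, *Adipoq* in white adipose, *Ucp1* in brown adipose and *Vil1* in small intestine.

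Collagens are proteins of 3 chains wound into a triple helix, and they make up most of the protein outside cells. Fibrillar collagens such as I, III and V form the fibers of connective tissue and are made mainly by fibroblasts. Collagen IV forms the sheet of the basement membrane that surrounds adipocytes, muscle fibers and capillaries, and collagens such as VI, XV and XVIII link fibers, cells and basement membranes. In adipose tissue this matrix surrounds each adipocyte and is remodeled when the cells change in size.

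White adipose tissue had the highest level of most collagen genes. In the white adipose library the 44 genes summed to 1708 FPKM, which was 0.407% of all FPKM, against 0.0276% to 0.0591% in the other 6 tissues. Of the 37 collagen genes with at least 1 FPKM in a tissue, 20 were highest in white adipose (6 fibrillar, 5 of collagen IV and 9 other), whereas 20.2% of all 18327 genes with that level were. Brain held 9 (29.7% of all genes), small intestine 3 (27.1%), tibialis anterior 2 (5.49%), liver 2 (8.18%), brown adipose 1 (5.72%) and heart 0 (3.65%). The summed level of 12 fibroblast markers was also highest in white adipose, at 4409 FPKM against 53.4 to 532.7 in the other 6 tissues. Most of that sum was *Gsn*, at 3379 FPKM. *Dpp4* was highest in small intestine, at 102.4 FPKM against 11.5 in white adipose, and the rest of the list was highest in white adipose. The part of these cells in the collagen levels was not tested. In bulk tissue, more cells of a type and more RNA per cell cannot be told apart. With 1 library for each tissue there is no replicate check and no test. RNA of white adipose and iWAT was extracted with a column kit and that of the other tissues with TRIzol, so that extraction and tissue cannot be told apart there.

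**Figure D1:**
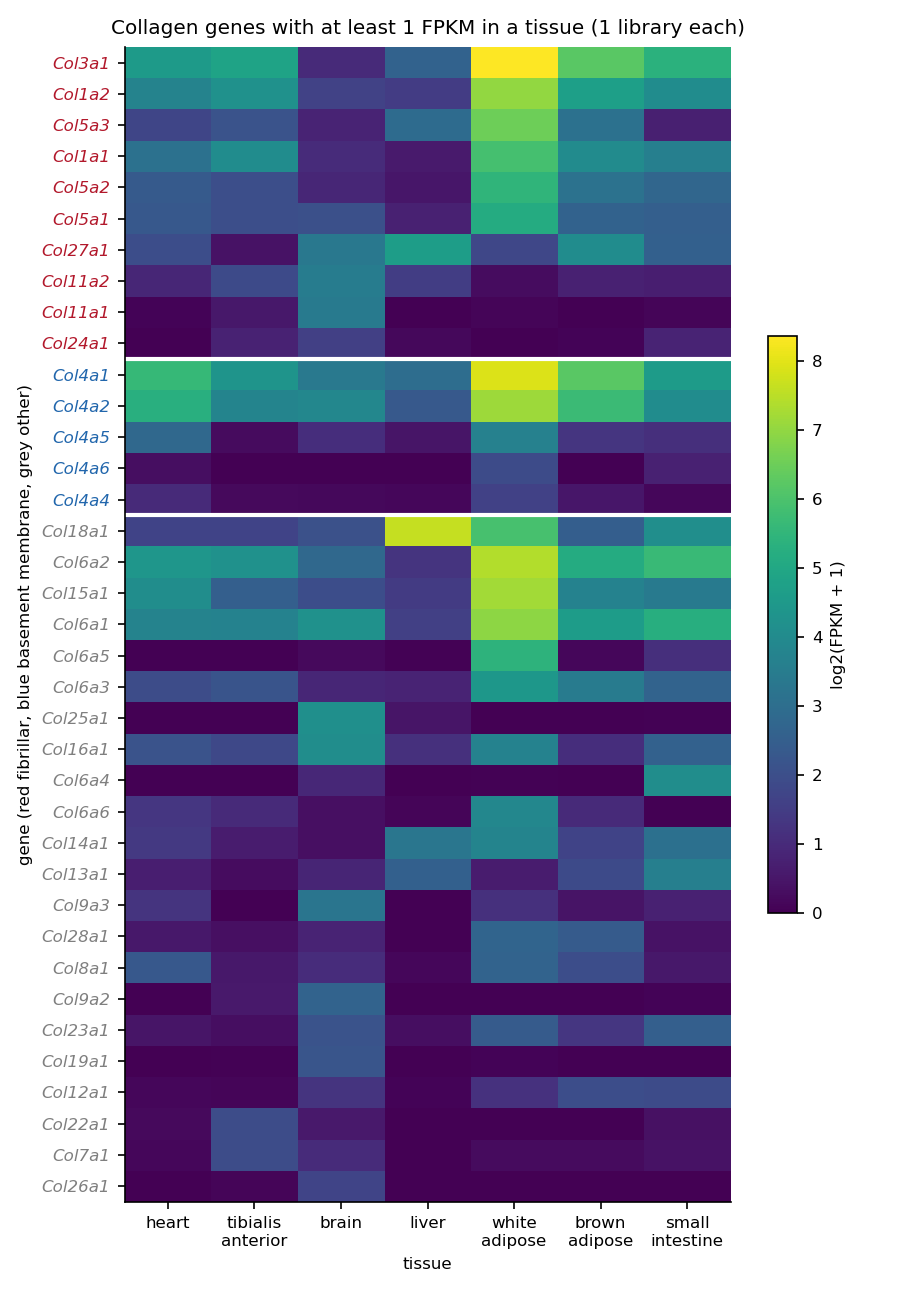
The 37 collagen genes with at least 1 FPKM in a tissue (rows, red names fibrillar, blue names collagen IV, grey names other) in the 7 tissues (columns, 1 library each), colored by log2(FPKM + 1). White adipose holds the brightest cell of 20 rows, *Col18a1* is brightest in liver, and 9 rows are brightest in brain.

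Among the fibrillar collagens, *Col3a1*, the chain of collagen III, was the most abundant collagen gene in white adipose, brown adipose and tibialis anterior. Its FPKM was 330.3 in white adipose, 73.6 in brown adipose, 39.7 in small intestine, 27.8 in tibialis anterior, 22.8 in heart, 5.24 in liver and 0.991 in brain. *Col1a2* and *Col1a1*, the chains of collagen I, were also highest in white adipose, but lowest in liver. *Col1a2* was at 128.6 FPKM in white adipose, 25.5 in brown adipose, 17.9 in tibialis anterior, 15.8 in small intestine, 12.3 in heart, 2.14 in brain and 1.79 in liver. *Col1a1* was at 58.7 FPKM in white adipose, 15.8 in tibialis anterior, 15.6 in brown adipose, 11.1 in small intestine, 7.65 in heart, 1.03 in brain and 0.533 in liver.

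Of the fibrillar chains, *Col5a3* was the one with at least 10 times its next tissue in white adipose. This additional chain of collagen V was at 91.5 FPKM there and at 7.73 in brown adipose, a ratio of 11.7 with 0.1 added to both. *Col5a1* and *Col5a2*, the main chains of collagen V, were at 34.2 and 43.6 FPKM in white adipose and at 5.18 and 7.85 in brown adipose. Liver and brain had a different set. *Col27a1*, a fibrillar collagen best known from cartilage, was highest in liver at 24.4 FPKM, followed by brown adipose at 16.0 and brain at 9.24. *Col11a1*, a chain of the cartilage collagen XI, was at 9.84 FPKM in brain and at most 0.470 in the other tissues, and *Col11a2* was also highest in brain, at 10.5.

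Collagen IV was carried by the same 2 chains in every tissue. *Col4a1* and *Col4a2* assemble with each other into the common form of collagen IV, and the other 4 chains make the forms of specialised membranes such as that of the kidney glomerulus. *Col4a1* was at 243.3 FPKM in white adipose, 73.4 in brown adipose, 47.9 in heart, 23.3 in small intestine, 19.4 in tibialis anterior, 9.37 in brain and 6.97 in liver. *Col4a2* was at 141.1 FPKM in white adipose, 51.0 in brown adipose, 37.6 in heart, 15.9 in small intestine, 13.8 in brain, 12.7 in tibialis anterior and 4.004 in liver. Both chains were lowest in liver, and *Col4a1* was the most abundant collagen gene in heart, with 21.9% of the collagen FPKM. The remaining chains were low: *Col4a5* reached 11.7 FPKM in white adipose and 6.10 in heart, *Col4a6* 2.79 and *Col4a4* 2.06 in white adipose, and *Col4a3* stayed below 1 FPKM everywhere.

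The 6 collagen IV genes lie in 3 head-to-head pairs. In GENCODE M21 on GRCm38, *Col4a1* (chromosome 8, 11198423 to 11312826, minus strand) and *Col4a2* (11312805 to 11449287, plus strand) overlap by 22 bases at their first exons, *Col4a4* and *Col4a3* on chromosome 1 are 71 bases apart and *Col4a6* and *Col4a5* on chromosome X are 1308 bases apart. Reads were assigned without strand, so reads in the overlap of *Col4a1* and *Col4a2* cannot be told apart. The promoter windows of this pair are shown because the 2 most abundant collagen IV genes share that sequence. They are the RefSeq windows on GRCm38.p6, from 250 bases before to 50 after the annotated start, each written 5′ to 3′ on its own gene's strand, at chr8:11312777-11313076 (minus) and chr8:11312555-11312854 (plus). The capitals mark the 78 bases that both windows hold, on opposite strands.
Col4a1: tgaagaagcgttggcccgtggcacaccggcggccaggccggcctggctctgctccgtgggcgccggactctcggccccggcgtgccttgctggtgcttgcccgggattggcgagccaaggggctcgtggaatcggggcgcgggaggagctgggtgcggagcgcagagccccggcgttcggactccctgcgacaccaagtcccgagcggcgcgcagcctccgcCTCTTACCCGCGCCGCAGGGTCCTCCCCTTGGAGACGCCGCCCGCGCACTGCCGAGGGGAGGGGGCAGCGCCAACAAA
Col4a2: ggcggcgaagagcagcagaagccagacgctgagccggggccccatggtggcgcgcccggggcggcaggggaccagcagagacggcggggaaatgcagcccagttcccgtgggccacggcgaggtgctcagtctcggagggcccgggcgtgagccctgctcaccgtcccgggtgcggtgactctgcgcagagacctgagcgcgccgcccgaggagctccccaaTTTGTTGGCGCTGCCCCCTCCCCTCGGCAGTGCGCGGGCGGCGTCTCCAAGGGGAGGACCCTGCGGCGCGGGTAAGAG

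For comparison, the windows of *Col1a2* (chr6:4505368-4505667, plus) and *Col3a1* (chr1:45311288-45311587, plus) are shown, since these were the most abundant fibrillar chains of iWAT and of the white adipose library. The capitals mark every match, on either strand, to 3 short motifs that were searched: CCAAT, the core of the CCAAT box, TATAAA, a form of the TATA box, and GGGCGG, the core of the GC box. None of the 3 contains another.
Col1a2: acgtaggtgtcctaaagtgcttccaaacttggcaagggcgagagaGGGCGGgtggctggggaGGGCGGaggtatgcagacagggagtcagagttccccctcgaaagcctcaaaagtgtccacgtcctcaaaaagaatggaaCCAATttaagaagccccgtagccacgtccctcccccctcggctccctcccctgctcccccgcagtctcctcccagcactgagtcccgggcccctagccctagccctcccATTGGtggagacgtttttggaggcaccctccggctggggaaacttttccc
Col3a1: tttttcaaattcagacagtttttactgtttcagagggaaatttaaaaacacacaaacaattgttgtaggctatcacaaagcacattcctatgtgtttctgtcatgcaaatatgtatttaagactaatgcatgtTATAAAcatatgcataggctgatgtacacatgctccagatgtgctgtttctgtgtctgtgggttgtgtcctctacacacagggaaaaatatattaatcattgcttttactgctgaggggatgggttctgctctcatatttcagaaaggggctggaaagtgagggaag
RefSeq windows were found for 35 of the 44 genes, 38 windows in all, since 3 genes had 2. GGGCGG was in 23 of these 38 windows, or 60.5%, against 35.7% of all 32851 windows of the same length. CCAAT was in 13 (34.2%, against 37.4% of all) and TATAAA in 5 (13.2%, against 13.6%). A match describes the letters of the window only.

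Among the other collagens, collagen VI, the beaded filament of muscle and fat, was led in white adipose by *Col6a2* at 168.1 FPKM and *Col6a1* at 121.5, followed by *Col6a5* at 41.2 and *Col6a3* at 20.6. *Col6a2* was the most abundant collagen gene of small intestine at 50.02 FPKM, and *Col6a1* that of brain at 17.9. The alternative chains *Col6a4*, *Col6a5* and *Col6a6* are neighbors on chromosome 9. *Col6a4* was at 16.1 FPKM in small intestine and at most 0.918 elsewhere, and *Col6a5* was at 41.2 FPKM in white adipose and at most 1.20 elsewhere. *Col6a6* was also highest in white adipose, at 13.7 FPKM, followed by heart at 1.502.

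The white adipose library also held mesothelial genes. It had *Upk3b* at 20.8 FPKM, *Msln* at 9.91 and *Wt1* at 7.47, and the summed level of 10 epithelial and mesothelial markers was 60.4. In the 6 iWAT libraries, in which 6 of these 10 markers were listed, that sum was 1.45 to 6.49 and *Col6a5* was at 0.615 to 2.68 FPKM, and their part in the level of *Col6a5* was not tested.

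*Col18a1* and *Col15a1*, the chains of the related basement membrane collagens XVIII and XV, had different leading tissues. *Col18a1* (chromosome 10, 77052178 to 77166548, minus strand) was at 197.2 FPKM in liver, where it made up 72.3% of the collagen FPKM, at 60.1 in white adipose, 16.8 in small intestine and 2.20 to 4.68 in the other 4 tissues. *Col15a1* was at 146.2 FPKM in white adipose, 16.2 in heart, 12.1 in brown adipose and 1.75 in liver.

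Of the 37 collagen genes, 7 (18.9%) had at least 1 FPKM in 1 tissue and at least 10 times the next tissue, and 17% of all genes did. Brain held 4 of them: *Col25a1*, a transmembrane collagen of neurons, at 16.9 FPKM, *Col11a1* at 9.84, *Col19a1*, a fibril-associated collagen, at 3.64 and *Col26a1* at 2.30. White adipose held *Col5a3* and *Col6a5*, and small intestine *Col6a4*. *Col9a2*, a chain of the cartilage collagen IX, was just under this limit in brain, at 9.28 times the next tissue. At the other end, 8 collagen genes had at least 1 FPKM in all 7 tissues, 7 had it in none, and *Col10a1*, the collagen of hypertrophic cartilage, was at 0 in all 7.

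Chains that share a molecule were compared by their ratio in each library. *Col1a1* was below *Col1a2* in all 19 libraries, at ratios of 0.297 in liver to 0.886 in tibialis anterior. The ratio of *Col4a1* to *Col4a2* was 1.27 to 1.74 in 6 tissues and 0.682 in brain. In the cold-exposed mice it was 1.24 to 1.38 in the 6 BAT libraries and 1.52 to 1.96 in the 6 iWAT libraries. Brain was also apart in the ratio of *Col6a1* to *Col6a2*, at 2.93 against a median of 0.723 over the 7 tissues, and in that of *Col5a1* to *Col5a2*, at 3.67 against a median of 0.943. The ratio of *Col15a1* to *Col18a1*, which do not share a molecule, ran from 0.00887 in liver to 7.33 in heart.

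**Figure D2:**
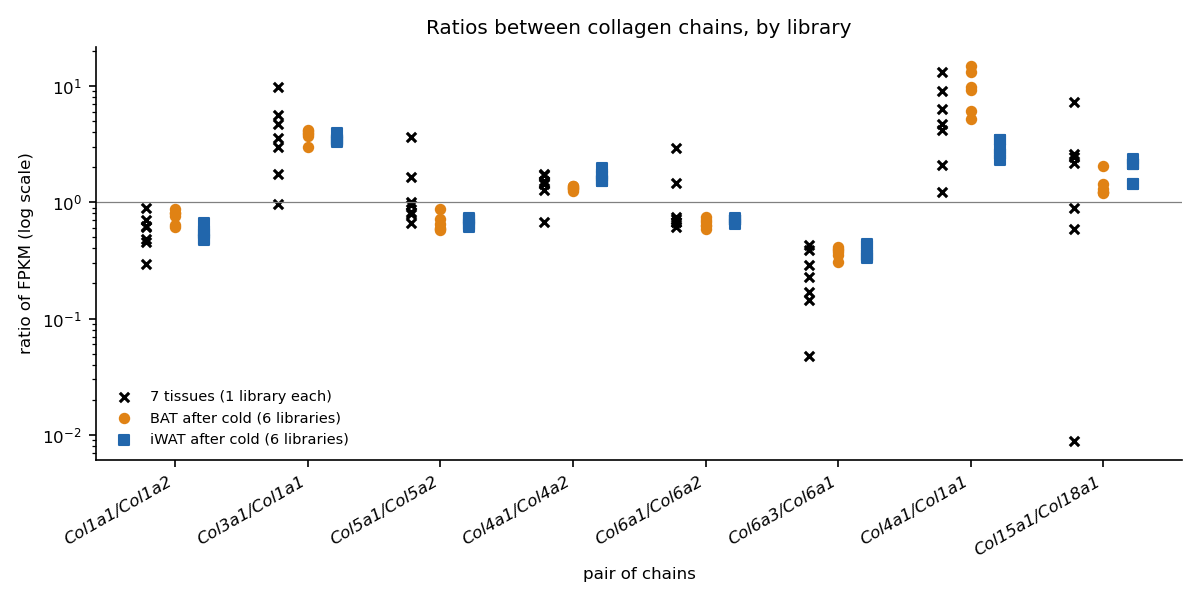
Ratios of FPKM between 8 pairs of collagen genes on a log axis, with 1 point for each library of the 7 tissues (black crosses), BAT after cold (orange circles) and iWAT after cold (blue squares). *Col1a1*/*Col1a2* lies below 1 in every library, and *Col4a1*/*Col1a1* is 5.20 to 14.9 in BAT and 2.31 to 3.45 in iWAT.

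After 1 week of cold, collagen genes took a larger share of the transcripts in iWAT than in BAT. They were 0.152% to 0.204% of all FPKM in the 6 iWAT libraries and 0.0211% to 0.0360% in the 6 BAT libraries, with no overlap. All FPKM covered 13756 listed genes in iWAT and 55487 in BAT. The 10 most abundant genes held 11.9% to 13.0% of it in iWAT and 48.4% to 51.3% in BAT, which also enters these shares. Of the 24 collagen genes with a mean of at least 1 FPKM in either depot, 20 were higher in every iWAT library than in any BAT library, as were 67.7% of the 12295 genes compared. Genes not listed in iWAT were left out. *Col4a5*, *Col6a5*, *Col14a1*, *Col23a1* and *Col28a1*, all among the 20, passed this filter only through iWAT. So did *Col12a1*, with overlap, and *Col11a2*, also with overlap, passed only through BAT. For genes that passed through 1 depot the filter itself favors a higher level there, and their ratios enter the median. The median ratio of iWAT to BAT was 5.65 over the 24 genes and 2.13 over all genes. The tables were normalized separately, so these levels were given no test.

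The ratio varied within each class. It had a median of 6.40 over 8 fibrillar genes (0.467 to 9.67), 2.30 over 3 collagen IV genes and 5.24 over 13 others (1.32 to 189). The ratio of 189 was that of *Col6a5*, at a mean of 1.40 FPKM in iWAT and 0.0074 in BAT. With BAT so near 0, its size has little meaning. Among the abundant chains it was 6.06 for *Col3a1*, 9.67 for *Col1a2* and 6.74 for *Col1a1*. In collagen IV it was 2.30 for *Col4a1* and 1.84 for *Col4a2* but 8.53 for the low *Col4a5*. *Col11a2* had a ratio of 0.744 with overlap, and *Col27a1* was at 4.16 to 8.44 FPKM in iWAT and at 10.3 to 18.4 in BAT, lower in every iWAT library, as 7.33% of all genes were. The classes made up different shares of the collagen FPKM. Collagen IV was 36.8% to 52.3% of it in BAT and 22.2% to 27.5% in iWAT, and the fibrillar collagens were 28.1% to 40.0% in BAT and 40.5% to 47.2% in iWAT. *Col4a1* was the most abundant collagen gene in all 6 BAT libraries, with 21.3% to 29.7% of the collagen FPKM. *Col3a1* was so in 5 of the 6 iWAT libraries and *Col4a1* in WT replicate 1.

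**Figure D3:**
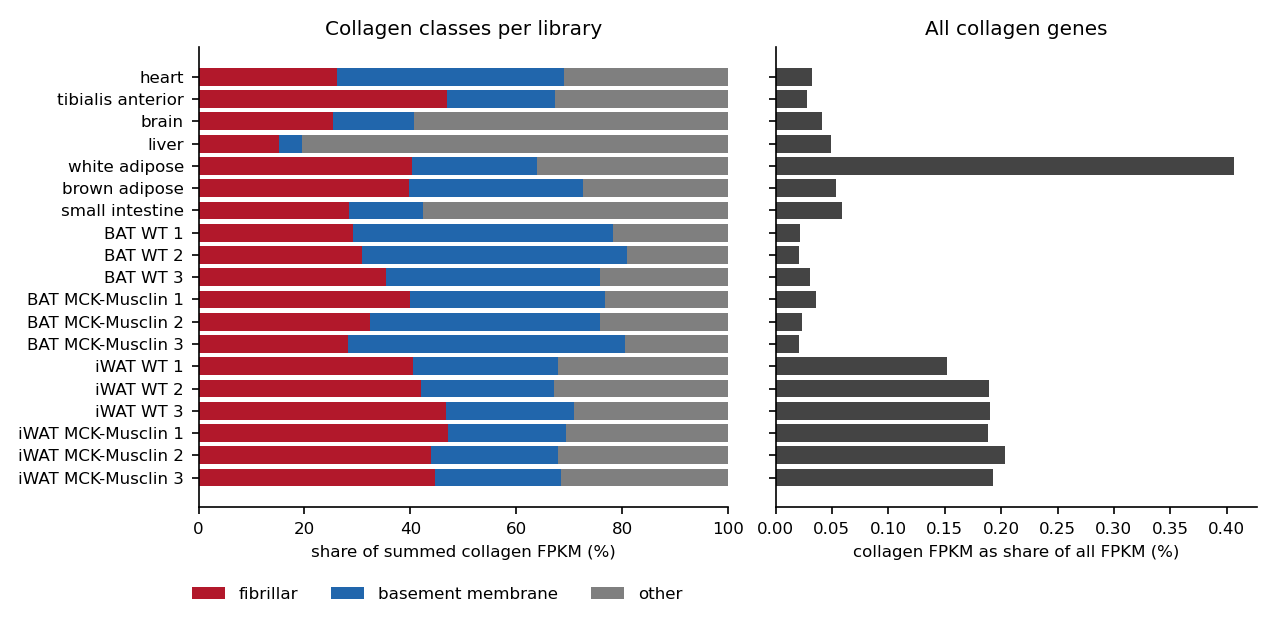
Left, the share of the summed collagen FPKM (%) of the fibrillar (red), collagen IV (blue) and other (grey) chains in the 19 libraries. Right, the collagen FPKM as a share of all FPKM (%), where white adipose is at 0.407%, the iWAT libraries at 0.152% to 0.204% and the BAT libraries at 0.0211% to 0.0360%.

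The brown adipose library of the 7 tissues had more collagen transcript than the cold-exposed BAT. Of 23 collagen genes with at least 1 FPKM in either, 18 were above all 6 BAT libraries, compared with 51.6% of all 12130 genes, and *Col11a2* was below them (21.3%). Among the 18, *Col4a5*, *Col12a1*, *Col14a1*, *Col23a1* and *Col28a1* passed this filter only through the brown adipose library, and *Col11a2* passed only through BAT. For such genes the filter itself favors that order. The ratio to the BAT mean was 3.45 for *Col3a1*, 1.62 for *Col4a1* and 1.49 for *Col4a2*. The white adipose library was above all 6 iWAT libraries for 23 of 27 collagen genes, compared with 35.5% of all 12548 genes, and below them for *Col27a1* and *Col13a1* (30.5% of all genes). Here *Col4a4*, *Col4a6* and *Col6a6*, among the 23, and *Col9a3*, with overlap, passed only through the white adipose library, and *Col13a1* only through iWAT. Genes not listed in iWAT were left out of the white adipose comparison. Temperature, mice and table differ together in these comparisons and cannot be told apart. The label of the white adipose library does not name its depot, so depot may differ from iWAT as well. Neither comparison was tested.

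In iWAT, no collagen gene differed by limma between MCK-Musclin and WT mice at the study's cutoff. That cutoff asks for an unadjusted p below 0.05 and a change of more than 0.5 in log2. In both depots the study applied its cutoffs to results of DESeq2, so the calls given here need not match its own gene sets. With limma on log2(FPKM + 1) over the 12197 genes with a mean of at least 1 FPKM, 23 of the 34 collagen genes were tested. None was higher at that cutoff (5.04% of all genes were) and none lower (0.902%). At an unadjusted p under 0.05 alone, 1 was higher (13.1% of all genes were) and none lower (3.44%). The smallest adjusted p of a collagen gene, that of *Col16a1*, was 0.29998 by limma with Benjamini-Hochberg adjustment, and of any gene 0.0912. The log2 fold change was above 0 for 18 of the 23, and for 61.3% of all genes. The median was 0.19 over the 23 and 0.06 over all genes, and over the 23 it was 0.072 without WT replicate 1 and 0.17 without the library labelled MCK-Musclin replicate 1, where again none was at the cutoff.

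The 7 fibrillar genes tested all had fold changes above 0, with a median of 0.22, and none passed. *Col3a1* was at 91.7, 118.9 and 139.9 FPKM in WT and at 142.2, 148.4 and 135.5 in MCK-Musclin. Its log2 fold change was 0.30 (95% interval -0.07 to 0.66, adjusted p = 0.380 by limma). *Col1a1* was at 26.7, 30.1 and 42.4 FPKM in WT and at 42.2, 43.0 and 38.6 in MCK-Musclin, a log2 fold change of 0.34 (-0.06 to 0.73, adjusted p = 0.362 by limma). For both, WT replicates 1 and 2 were below the 3 MCK-Musclin libraries and WT replicate 3 was among them. *Col1a2* was at 47.6, 61.8 and 78.2 FPKM in WT and at 78.4, 65.1 and 81.2 in MCK-Musclin, with overlap and a log2 fold change of 0.28 (-0.15 to 0.71).

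Collagen IV had the smallest spread over the iWAT libraries, where the highest library had a median of 1.30 times the lowest over its 3 genes tested, 1.62 over the fibrillar and 1.66 over the other genes. *Col4a1* was at 92.3, 102.8 and 109.8 FPKM in WT and at 97.6, 111.5 and 110.9 in MCK-Musclin, a log2 fold change of 0.07 (-0.18 to 0.32). *Col4a2* was at 59.1, 67.5 and 56.1 FPKM in WT and at 57.8, 72.7 and 63.1 in MCK-Musclin, a log2 fold change of 0.08 (-0.20 to 0.36). The upper bounds correspond to 1.25 and 1.29 times the WT level, so larger increases of these chains lie outside the intervals of this fit. The bounds depend on the scaling. With the libraries centered on general adipocyte markers, described below, the log2 fold changes were 0.28 for *Col4a1* and 0.29 for *Col4a2*. *Col4a5* was at 1.04, 1.28 and 1.80 FPKM in WT and at 1.36, 1.14 and 1.01 in MCK-Musclin (-0.12, -0.49 to 0.25).

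Among the other collagens, the groups of *Col6a2* did not overlap, as those of 17.9% of all genes did not with MCK-Musclin higher. None of the 23 had all MCK-Musclin libraries below WT (5.44% of all genes did). *Col6a2* was at 46.4, 62.9 and 62.7 FPKM in WT and at 63.6, 72.8 and 75.1 in MCK-Musclin, a log2 fold change of 0.30 (-0.03 to 0.64, adjusted p = 0.340 by limma). Its partner *Col6a1* was at 32.8, 44.2 and 45.6 FPKM in WT and at 44.3, 47.7 and 52.4 in MCK-Musclin, with overlap, and at 0.24 (-0.10 to 0.58). *Col15a1* was at 40.2, 49.9 and 27.8 FPKM in WT and at 41.2, 57.4 and 32.4 in MCK-Musclin, a wide spread in both groups (0.15, -0.46 to 0.76). The gene with an unadjusted p under 0.05 was *Col16a1*, a fibril-associated collagen, named here after its value was seen: it was at 3.97, 4.41 and 5.08 FPKM in WT and at 5.81, 5.03 and 6.90 in MCK-Musclin (0.33, 0.00224 to 0.66, adjusted p = 0.29998 by limma).

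Other cell types differed between the iWAT libraries. The summed level of 10 B cell markers, of which 9 were listed, was 160.1 to 310.7 FPKM in WT and 350.3 to 457.5 in MCK-Musclin, and that of 12 T cell markers was 152.6 to 227.6 and 303.3 to 338.3. That of 8 markers of lymph node stroma, of which 7 were listed, was 160.3 to 336.8 in WT and 356.5 to 580.1 in MCK-Musclin. The 12 fibroblast markers summed to 2960.1, 3281 and 3625 FPKM in WT replicates 1, 2 and 3 and to 3182 to 3323 in MCK-Musclin. WT replicate 1 was lowest in this sum and in the summed fibrillar collagens, at 226.1 FPKM. WT replicate 3 was highest in the fibroblast sum, and its fibrillar sum of 326.8 FPKM was below the 330.2 to 340.0 of MCK-Musclin. The order by sum leans on the most abundant markers. By the mean of log2(FPKM + 1) over the 12 fibroblast markers, MCK-Musclin replicate 3 was highest, at 5.98, and WT replicate 3 was at 5.82. WT replicate 1 was lowest there too, at 5.638, beside 5.642 in MCK-Musclin replicate 2. The 12 general adipocyte markers summed to 14259 to 15674 FPKM in WT and to 12603 to 14280 in MCK-Musclin. The 10 brown and beige fat markers summed to 581.9 to 1082 FPKM in WT and to 128.3 to 652.5 in MCK-Musclin, and the 12 macrophage markers to 763.3 to 785.7 and 769.3 to 1099. When each library was centered on the general adipocyte markers, the median fold change of all genes moved from 0.06 to 0.27 on the log2 scale and that of the collagen genes to 0.40, and *Col1a1*, *Col3a1*, *Col6a2* and *Col16a1* were higher at the cutoff, 4 of the 23, beside 16% of all genes at that setting. With median-ratio scaling 15 of the 23 collagen genes were above 0 instead of 18. The part of these cells in the collagen levels was not tested.

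**Figure D4:**
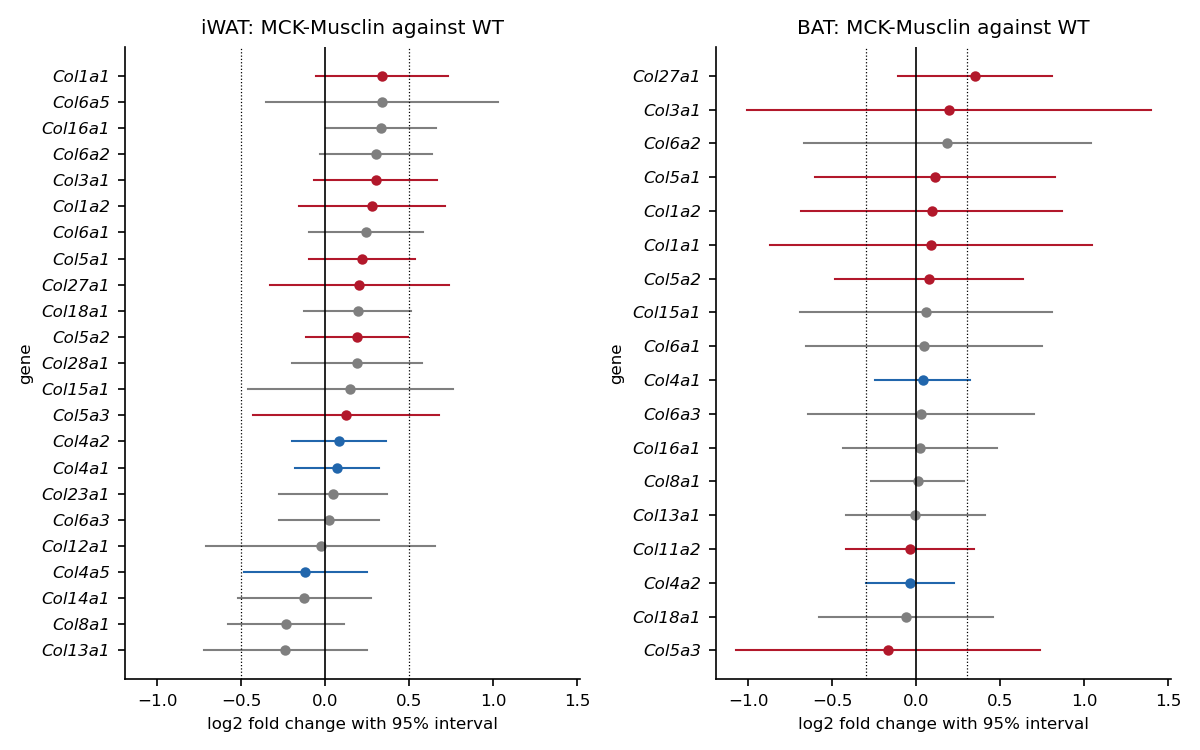
Log2 fold change of MCK-Musclin against WT with its 95% interval from limma for the 23 collagen genes tested in iWAT (left) and the 18 in BAT (right), red fibrillar, blue collagen IV and grey other. Dotted lines mark the log2 cutoffs of 0.5 and 0.3, and the interval of *Col16a1* in iWAT is the one that does not hold 0.

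In BAT, no collagen gene differed by limma between the genotypes at the study's cutoff. The fibrillar chains had a wide spread between libraries of the same genotype. Of the 44 genes, 18 had a mean of at least 1 FPKM and were tested among 10893 genes, and the study's cutoff in this depot asks for a change of more than 0.3 in log2 beside the same p. None was higher (1.85% of all genes were) or lower (2.15%) by limma, and none had an unadjusted p under 0.05 (2.18% and 2.71% of all genes did). The smallest adjusted p of a collagen gene was 0.968 by limma with Benjamini-Hochberg adjustment, and 1 gene of all, *Ostn*, was under 0.05 (0.00918%). For none of the 18 did the groups separate (4.38% of all genes with MCK-Musclin higher, 5.63% with it lower). The log2 fold change was above 0 for 13 of the 18 and for 47.7% of all genes. Its median was 0.04 over the 18 genes and -0.01 over all genes, and it was -0.06 without WT replicate 2 and -0.14 without MCK-Musclin replicate 1. It moved by more than 1.5 times when any other library was left out as well, to values between 0.02 and 0.26.

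WT replicate 3 and MCK-Musclin replicate 1 stood apart: both were above the other 4 libraries for 12 of the 18 collagen genes, as they were for 7.29% of all genes. These 2 libraries were picked after the collagen values were seen. The count therefore describes the choice and is no test of it. *Col3a1* was at 12.8, 12.01 and 34.0 FPKM in WT and at 40.5, 17.6 and 11.2 in MCK-Musclin, so that the highest library had 3.63 times the lowest. *Col1a1* was at 4.31, 3.14 and 8.16 FPKM in WT and at 9.95, 4.48 and 3.03 in MCK-Musclin, and *Col1a2* at 5.35, 4.92 and 10.1 and at 11.5, 5.85 and 4.93. The high libraries belong to different genotypes and to different replicate numbers. The intervals of the fold changes were accordingly wide, at -1.01 to 1.39 for *Col3a1*, -0.87 to 1.04 for *Col1a1* and -0.68 to 0.87 for *Col1a2*. Without these 2 libraries, a choice made after the data were seen, the median over the 18 genes was 0.04 and again none passed.

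Collagen VI and XV had the same pattern. *Col6a2* was at 9.84, 8.41 and 18.3 FPKM in WT and at 21.3, 13.1 and 8.18 in MCK-Musclin, and *Col6a1* at 6.98, 6.28 and 11.5 and at 12.6, 8.11 and 5.49. *Col15a1* was at 4.44, 2.98 and 7.26 FPKM in WT and at 7.65, 4.14 and 3.53 in MCK-Musclin. The log2 fold changes of these 3 genes were 0.18 (-0.67 to 1.04), 0.05 (-0.66 to 0.75) and 0.06 (-0.69 to 0.81).

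Collagen IV had a smaller spread than the fibrillar chains here too. *Col4a1* was at 42.5, 41.3 and 50.1 FPKM in WT and at 51.8, 40.9 and 45.04 in MCK-Musclin, and *Col4a2* at 32.7, 33.4 and 37.7 and at 37.4, 29.8 and 34.1. The highest library had 1.27 times the lowest for either chain, and the fold changes were 0.04 (-0.24 to 0.32) and -0.04 (-0.30 to 0.23). *Col4a5* was at 0.104 to 0.194 FPKM in the 6 libraries and was not tested.

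*Col27a1* did not follow the 2 high libraries and had the largest fold change of the 18 genes. It was at 10.3, 18.4 and 11.6 FPKM in WT and at 18.0, 16.0 and 16.5 in MCK-Musclin. WT replicates 1 and 3 were below the MCK-Musclin libraries and WT replicate 2 was above them, and the log2 fold change was 0.35 (-0.11 to 0.80, adjusted p = 0.968 by limma). Without WT replicate 2 it was 0.58 and *Col27a1* was at the cutoff.

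The high libraries were read against markers of other cells. The 12 fibroblast markers summed to 285.0 and 265.0 FPKM in WT replicate 3 and MCK-Musclin replicate 1 and to 185.9 to 235.4 in the other 4. The 12 macrophage markers summed to 161.9 FPKM in MCK-Musclin replicate 1 and to 61.8 to 81.9 in the other 5 libraries. The 13 skeletal muscle markers were highest in MCK-Musclin replicate 1, at 1406 FPKM, and lowest in WT replicate 3, at 372.9. The 12 endothelial markers, at 186.2 to 216.7, were at 212.6 and 186.2 FPKM in these 2 libraries. The part of these cells in the collagen levels was not tested.

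**Figure D5:**
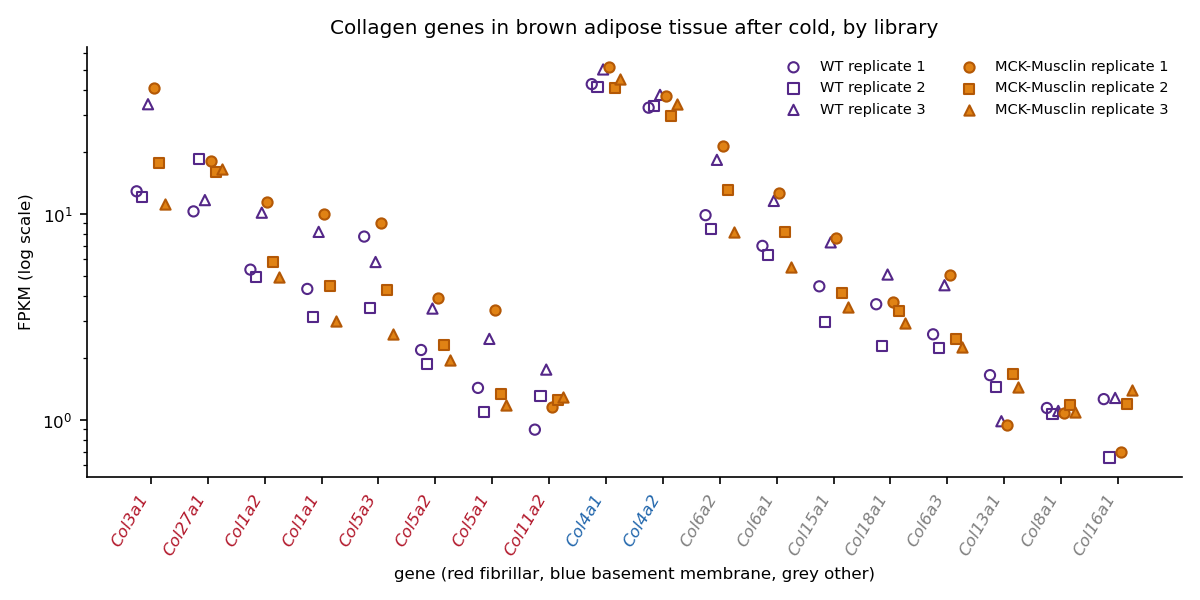
FPKM (log axis) of the 18 collagen genes tested in BAT in each of the 6 libraries, open purple for WT and filled orange for MCK-Musclin, with circles, squares and triangles for replicates 1, 2 and 3. WT replicate 3 (open triangle) and MCK-Musclin replicate 1 (filled circle) are the highest 2 points for 12 genes, *Col3a1* spans 3.63 times and *Col4a1* 1.27 times.

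The effect of the genotype on the collagen genes was compared between depots with an interaction term in limma. Among 17 collagen genes of the 9757 genes tested, none had an unadjusted p under 0.05 (10.1% of all genes did) or an adjusted p under 0.05. The difference of the log2 fold changes, iWAT minus BAT, was 0.11 for *Col3a1* (-1.21 to 1.43), 0.03 for *Col4a1* (-0.32 to 0.39) and 0.12 for *Col6a2* (-0.84 to 1.07). These intervals leave room for differences in either direction.

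Of 16 comparisons of chain ratios between the genotypes, 8 in each depot, 1 had groups that did not overlap. The ratio of *Col6a1* to *Col6a2* in iWAT was 0.712 ± 0.0128 (SD, n = 3) in WT and 0.684 ± 0.0244 (SD, n = 3) in MCK-Musclin, with p = 0.1 by the exact two-sided permutation test, the smallest that 3 against 3 allow, and 0.8 after Benjamini-Hochberg adjustment over the 16. The ratio of *Col4a1* to *Col1a1*, basement membrane against fiber, was 3.15 ± 0.487 in WT and 2.59 ± 0.279 in MCK-Musclin in iWAT (SD, n = 3, exact permutation p = 0.3). In BAT it was 9.72 ± 3.51 in WT and 9.74 ± 4.87 in MCK-Musclin (SD, n = 3, exact permutation p = 0.9).

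Genes that act with the collagens were read in 6 lists. In iWAT none of the 92 tested passed the cutoff in either direction, and at an unadjusted p under 0.05 6 were higher and 3 lower, beside 13.1% and 3.44% of all genes. Those with the smallest p in each direction were *Tnc*, the matrix protein tenascin C, at 0.49 (0.19 to 0.78, adjusted p = 0.158 by limma), and *Lamc3*, a laminin chain, at -0.39 (-0.71 to -0.07, adjusted p = 0.233 by limma), both named after their values were seen. In the list of basement membrane partners, which holds laminins, nidogens and perlecan, 2 of 14 genes were above 0, with a median log2 fold change of -0.19. In the other 5 lists, 8 to 18 genes were above 0: 12 of 18 for collagen biosynthesis, 8 of 10 for processing and cross-linking, 18 of 23 for matrix proteins that bind collagen, 8 of 12 for receptors and 9 of 15 for the TGF-β pathway, beside 61.3% of all genes. In BAT 1 gene of the 71 tested was higher at the cutoff, which 1.85% of all genes were, and none lower (2.15%). It was *Pcolce2*, an enhancer of the protease that removes the C-terminal propeptide of procollagen. It was at 1.01, 0.909 and 1.25 FPKM in WT and at 1.73, 1.60 and 2.01 in MCK-Musclin, without overlap (4.38% of all genes), with a log2 fold change of 0.43 (0.12 to 0.75, adjusted p = 0.968 by limma). In the 7 tissues, white adipose was the highest tissue of 10 of 12 processing genes, 18 of 24 matrix proteins that bind collagen and 9 of 20 biosynthesis genes, beside the 20.2% of all genes given above.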

How the data were processed

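Poly(A) RNA of 19 mouse tissue samples was sequenced and aligned without strand. The authors filtered reads with fastp and Bowtie2 (2.4.1 in the submitters' processing notes), aligned them to mm10 (GRCm38) with HISAT2 (2.1.0) and deposited FPKM values per gene from StringTie. Counts and depth were not given, so no count test was run and precision could be judged from replicates alone. Columns of the authors' own fold changes, p-values, adjusted p-values and group means in the iWAT table were not used. Of the lines of the 2 larger tables, 287 repeated lines each were used once. How the 13756 genes of the iWAT table were selected is not given in the sources used here.

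The genotypes were compared in each depot with limma (3.58.1, R 4.3.3) on log2(FPKM + 1) with a mean-variance trend, over genes with a mean of at least 1 FPKM in the 6 libraries, and p-values were adjusted over all of these by Benjamini-Hochberg. Fold changes are on that scale, which understates changes of low genes. The study states that RNA-seq used biologically independent animals within each genotype or treatment. It does not state whether iWAT and BAT came from the same mice. The interaction fit took all libraries of both depots as independent. Chain ratios were compared by exact two-sided permutation tests (scipy 1.17.1). Levels in the 7 tissues and between tables, which were normalized separately, were given no test. Tissue-restricted genes had at least 1 FPKM and, with 0.1 added, 10 times the next tissue. The fit was tested on simulated data of the same size, where 96 of 100 genes in iWAT and 100 of 100 in BAT changed by 1 on the log2 scale were called. These genes were drawn at random and given independent noise, and the change was larger than that of any collagen gene tested. The simulation therefore does not show what change of a collagen gene would have been found. Per-library values are given for the 3 most abundant members of each class in each depot, members and pathway genes at the cutoff, chains of the ratios with a result, and in the tissues the leading, collagen IV and tissue-restricted genes. Others were named after their values were seen. The members, lists and tests were chosen with earlier results of these data known. Gene positions are from GENCODE M21 on GRCm38, which held all 44 genes, 13 of them with an exon shared with another gene, and promoter windows from RefSeq.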

Additional observations from a re-analysis of the deposited data

How the results depend on the processing

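Without depth, FPKM gives no counting error for low genes, and 3 libraries a group leave wide intervals for the fibrillar chains of BAT. The count of iWAT collagens higher at the cutoff (0) became 1 without a filter on low values (4.55% of all genes), 1 with a log2 cutoff of 0.3 (11% of all genes) and 4 when centered on general adipocyte markers (16% of all genes), an alternative chosen after seeing the data, which also moved the iWAT median to 0.40 and turned *Col4a5* in iWAT to 0.093 and *Col4a2* in BAT to 0.055. *Col4a1* in iWAT was -0.0080 with median-ratio scaling. Without a filter, 2 of 34 collagens had an unadjusted p under 0.05 for a different effect in the depots (11.6% of all genes), the smaller adjusted p being 0.272 by limma, and 3 chain ratios had separate groups without the 2 high BAT libraries. In the tissues, brown adipose held 0 genes with TPM scaling, 2 with median-ratio scaling and 0 at 5 FPKM or more, heart 4 with median-ratio scaling and 1 without a minimum, tibialis anterior 0 at 5 FPKM or more, and tissue-restricted genes were 11 with TPM scaling and 3 with 1 added. The cause was not tested. Leaving out 1 library at a time gave 0 to 1 genes higher in iWAT (*Col1a1* without WT replicate 3, *Col6a5* without MCK-Musclin replicate 3), an iWAT median of 0.072 to 0.25, 0 to 1 genes higher in BAT (*Col27a1* without WT replicate 2), a BAT median of -0.14 to 0.26, 0 to 1 genes with a different effect in the depots (*Col8a1* without MCK-Musclin replicate 2 of iWAT, *Col18a1* without WT replicate 2 of BAT) and 1 to 3 separate chain ratios. Gene by gene it gave, in iWAT, -0.0069 to 0.16 for *Col4a2*, -0.22 to 0.0065 for *Col4a5* and -0.075 to 0.34 for *Col15a1*, and in BAT -0.30 to 0.65 for *Col3a1*, -0.23 to 0.38 for *Col1a2*, -0.051 to 0.12 for *Col4a1*, -0.11 to 0.047 for *Col4a2*, -0.14 to 0.50 for *Col6a2*, -0.23 to 0.31 for *Col6a1* and -0.22 to 0.33 for *Col15a1*. Same-numbered libraries of the genotypes correlated at 0.23, 0.06 and 0.11 in iWAT and at -0.10, -0.00 and 0.01 in BAT. Differently numbered ones correlated at -0.18 to 0.07 in iWAT and at -0.08 to 0.08 in BAT. The labels name no pairs, and the numbers were not taken as pairs in the main fit. With the number as a replicate block the medians were 0.19 and 0.04 and again 0 collagens passed in either depot. In iWAT 2 collagens then had an unadjusted p under 0.05 by limma instead of 1, beside 16% of all genes. Over all alternatives, 149 counts and medians stayed within the spread or 1.5 times of the reported value and 25 did not, and 265 single-gene values kept direction and side of the cutoff, 24 turned direction and 5 newly passed.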
